A study of Mus musculus with 24 samples.

Results

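ERVL-MaLR elements are long terminal repeat (LTR) retrotransposons, counted here by subfamily in mouse embryonic stem cells in which the transcription factor DUX was switched on. The members are all rows of the deposited tables with the family name ERVL-MaLR and the class LTR, 108 of 1146 repeat subfamilies. The rule uses these names and no measured value. By name they fall into 58 MLT1 rows, 29 ORR1 rows, 20 MT rows and MLT-int. A row whose name ends in "-int" holds the internal part of an element, and the other 52 rows hold LTRs.

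The 24 libraries hold strand-specific, rRNA-depleted RNA of the mouse embryonic stem cell line KH2 with a DUX transgene behind a doxycycline (DOX) responsive promoter. They form 12 groups of 2 libraries, since each of 6 lines was profiled untreated and after DOX for 16 h. WT and DUXBL-KO make up the plain set of 8 libraries. Both WT pLV2 lines (1 and 2), with TRIM24-KO and TRIM33-KO, carry pLV2 in their titles and make up the pLV2 set of 16 libraries. Every group, the controls included, carries the transgene, and the labels give neither the number of clones behind a knockout nor what pLV2 is. Each library is bulk RNA, so a change in the share of cells that use an element and a change in RNA per cell cannot be told apart. The labels do not say that replicates are separate cultures, so p-values measure only the spread between these libraries.

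LTR retrotransposons carry a promoter in each LTR, and solitary LTRs outnumber elements that keep their internal part. MaLR elements are old non-autonomous relatives of the ERVL family, which includes MERVL, the element that marks the 2-cell mouse embryo. MT and ORR1 elements are found in rodents, while MLT1 elements are older and shared among mammals. MT elements are well known as promoters of chimeric transcripts in mouse oocytes, and DUX activates MERVL and genes of the 2-cell stage.

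Each library held 11784696 to 19136869 gene counts and 62918 to 195897 counts of the 108 members. Members took between 0.426% (Wilson 95% lower bound 0.422%) and 1.18% (Wilson 95% upper bound 1.18%) of all counts, bounds that cover counting error only. Duxf3, the name of Dux in the annotation used, was at 0 to 0.096 CPM (counts scaled to a common library size) without DOX and at 1.09 to 8.32 with DOX, and each library matched its title. The treatment tag differed from the title in 8 pLV2 libraries, and titles were followed. Trim33 was at 20.3 and 21.4 CPM in TRIM33-KO without DOX against 115 to 140 in both WT pLV2 lines (log2 difference -2.61, SE 0.07, edgeR adjusted p = 5.96e-13). Trim24 was at 123 and 137 CPM in libraries labelled TRIM24-KO without DOX, between WT pLV2 line 1 (94.5 and 100) and line 2 (165 and 196). Duxbl1 was at 0.321 and 0.862 CPM in libraries labelled DUXBL-KO without DOX and at 0.364 and 1.86 in WT. Neither gene was called lower (Duxbl1 log2 difference -0.84, SE 0.97, edgeR adjusted p = 0.841). TRIM24-KO and DUXBL-KO below therefore mean the libraries labelled so, the deleted part is not given in the sources used here, and each direction drawn for them rests on the label. The 10 pluripotency markers summed to 4739 to 6080 CPM without DOX and 4216 to 5944 with DOX. The 10 fibroblast markers of feeder cells summed to 15.4 to 44.6 and 24.8 to 46.5 CPM, with up to 5 and 4 of the 10 at 0. With DOX, 0 pluripotency markers were called in WT and DUXBL-KO, 2 rose and 2 fell in line 1, 1 rose and 5 fell in line 2, 0 rose and 5 fell in TRIM24-KO, and 1 rose and 5 fell in TRIM33-KO. Of 6 fibroblast markers tested, 0 were called in WT and DUXBL-KO, and 2 rose in line 1, 2 in line 2, 2 in TRIM24-KO and 3 in TRIM33-KO, with 1 falling in each of the last 3. The shares of all genes called higher were 2.86%, 4.52%, 9.96%, 12.7%, 11.4% and 16.4% for WT, DUXBL-KO, line 1, line 2, TRIM24-KO and TRIM33-KO, and the shares called lower were 0.116%, 0.399%, 6.12%, 13.8%, 4.88% and 20%. The part of these markers in the results was not tested.

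ERVL-MaLR transcripts were more abundant with DOX in every line, and no member was called lower in any of them. The summed level, in CPM with TMM library sizes from gene rows, was 7097 and 7094 in WT without DOX and 9286 and 7959 with DOX. In libraries labelled DUXBL-KO it was 7019 and 8428 without DOX and 11370 and 10701 with DOX. WT pLV2 line 1 went from 4317 and 4373 to 7721 and 7982. The libraries with and without DOX did not overlap in any of these lines. Replicates were spread widely in WT with DOX and more widely in DUXBL-KO without DOX. WT pLV2 line 2 went from 5060 and 4695 to 12286 and 11211, and the libraries labelled TRIM24-KO went from 4716 and 4789 to 7786 and 11328. TRIM33-KO went from 5026 and 4829 to 16228 and 15901. The ratio of the group means was 1.22 in WT, 1.43 in DUXBL-KO, 1.81 in line 1, 2.41 in line 2, 2.01 in TRIM24-KO and 3.26 in TRIM33-KO. The TRIM24-KO libraries with DOX lay far apart, and replicate 1, at 7786 CPM, lay between the line 1 libraries with DOX. In replicate 2, at 11328 CPM, the gene CT010467.1, described below, took 30.4% of gene counts. The order of TRIM24-KO and line 1 in this ratio therefore rests on that library. Levels were set by TMM within each set, so the plain and pLV2 sets are not compared in level.

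**Figure D1:**
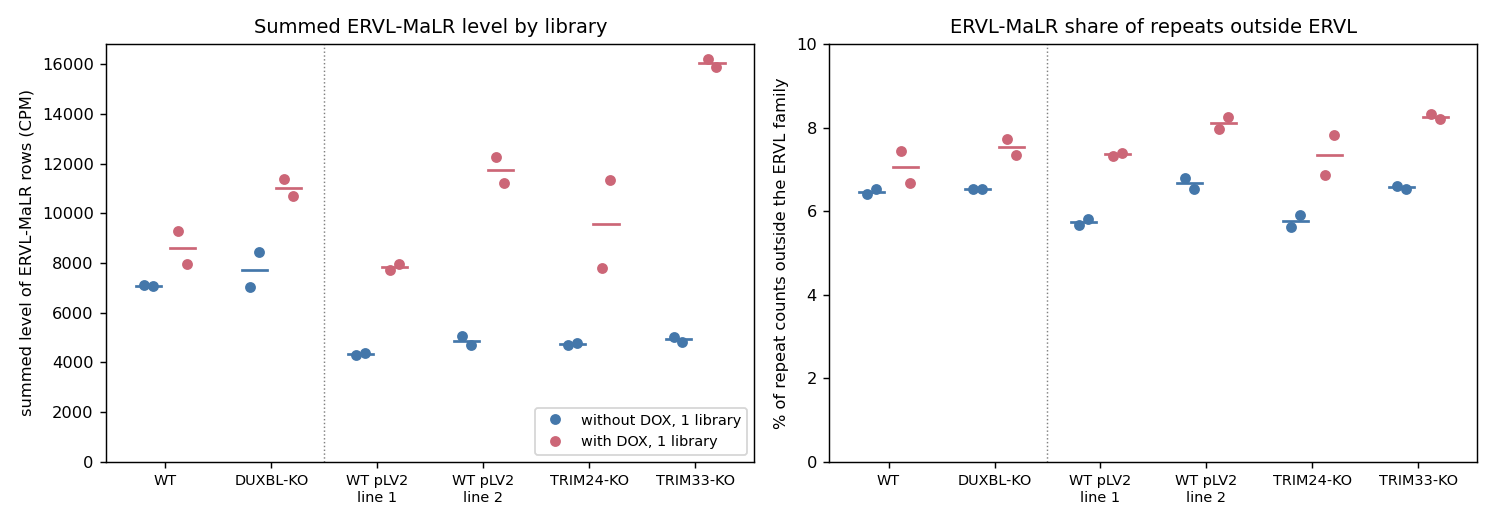
Left, the summed level of the 108 ERVL-MaLR rows (CPM) in each library, by line and DOX. Right, their share of the repeat counts that lie outside the ERVL family, in percent. Points are libraries, bars are means of 2 libraries, and the dotted line separates the plain set from the pLV2 set. Every library with DOX lies above the libraries of its own line without DOX in both plots, and within the pLV2 set TRIM33-KO with DOX is highest at 15901 and 16228 CPM.

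Members were then tested one by one (edgeR quasi-likelihood test, Benjamini-Hochberg adjusted over all repeat subfamilies tested, threshold 0.05). A filter on low counts left 90 of the 108 for plain libraries and 91 for pLV2 libraries, and the rows not tested were MLT1 internal rows and ORR1G-int. In WT, 10 of 90 members were called higher, beside 8.97% of all repeat subfamilies, and 29 had an unadjusted p under 0.05. The libraries did not overlap for 63 members that were higher in WT with DOX, beside 51.4% of all repeat subfamilies. Fitted changes were small, with a median log2 fold change of 0.22 for members and 0.20 for all repeat subfamilies. The WT count was 0 when either untreated WT library was left out. It was 2 when DOX replicate 1 was left out and 20 when DOX replicate 2 was.

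In libraries labelled DUXBL-KO, 42 of 90 members were called higher, beside 29.3% of all repeat subfamilies, with medians of 0.47 and 0.32. That count was 14 without DUXBL-KO without DOX replicate 1, 17 without DUXBL-KO with DOX replicate 1 and 23 without DUXBL-KO with DOX replicate 2. Without DUXBL-KO without DOX replicate 1 the medians were 0.28 for members and 0.16 for all repeats. Leaving out DUXBL-KO without DOX replicate 2 moved them the other way, to 0.606 and 0.485. In WT pLV2 line 1, 72 of 91 were called higher (61.2% of all), and in WT pLV2 line 2, 73 of 91 (71.8% of all). The medians were 0.72 for members and 0.59 for all repeats in line 1, and 1.08 and 0.95 in line 2. In libraries labelled TRIM24-KO, 68 of 91 were called higher (56% of all), with medians of 0.73 and 0.56. In TRIM33-KO, 81 of 91 were called higher (77.4% of all), with medians of 1.48 and 1.21. With 0 members called lower in any line, the shares of all repeats called lower were 0%, 0%, 0.311%, 0.207%, 0.725% and 1.04% in WT, DUXBL-KO, line 1, line 2, TRIM24-KO and TRIM33-KO.

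In that order, 6, 15, 27, 48, 30 and 66 members were called higher with a log2 fold change of at least 1, beside 5.81%, 16.2%, 28.7%, 46.8%, 31.6% and 56.6% of all repeats. Libraries with DOX lay above those without for 63, 64, 84, 80, 75 and 83 members, beside 51.4%, 52.2%, 77.5%, 81.3%, 68.2% and 84.6%. Members called at this fold made up 6.67%, 16.7%, 29.7%, 52.7%, 33% and 72.5% of those tested, near the share of all repeats in each line but line 2 and TRIM33-KO, where it was higher. The median log2 fold change of genes lay between -0.09 and 0.00 in the 6 lines, and ERVK subfamilies had medians of 0.34, 0.53, 0.80, 1.33, 0.85 and 1.62 in the same order.

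Within the repeat counts the members' share moved less than their level. It was 6.36% in WT without DOX and 5.95% with DOX, 6.55% and 5.47% in line 2, 6.45% and 5.23% in TRIM33-KO, and 5.65% and 5.90% in line 1. Over the same libraries the ERVL family grew from 1.43 to 1.71% of repeat counts without DOX to 10.8 to 38.5% with DOX. With ERVL rows left out of the total, the members' share was 6.41 to 6.53% without DOX and 6.67 to 7.72% with DOX in the plain set. In the pLV2 set it was 5.62 to 6.79% without DOX and 6.86 to 8.31% with DOX. The 2 conditions did not overlap in either set on this measure.

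Across the 6 lines, 10 of 108 members (9.26%) were called higher in each, beside 7.68% of all 1146 repeat subfamilies. They were the internal rows ORR1A1-int, ORR1A2-int, ORR1A3-int, ORR1F-int and MT-int and the LTR rows ORR1A1, ORR1A3, MLT1G3, MLT1H and MLT1L. These are the 10 members called in WT, so they are named with that smallest count in view. The WT count depended on single libraries, as given above, and so does this set. A further 32 members (29.6%) were called in 5 lines, beside 16% of all repeat subfamilies, and 24 (22.2%) in none, beside 31.7%, untested rows included.

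Among ORR1 rows, ORR1A1-int, the internal part of a young ORR1 subfamily, had the highest or next to highest log2 fold change of all members with at least 50 counts in every line. Its level was 56.3 and 57.2 CPM in WT without DOX and 265 and 147 with DOX. In libraries labelled DUXBL-KO it was 61.9 and 80.9 without DOX and 333 and 295 with DOX. Line 1 held 35.1 and 36.6 without DOX and 252 and 267 with DOX. The conditions did not overlap, and WT with DOX had the widest relative spread of these 3 lines. Line 2 went from 40.7 and 37.5 to 547 and 428, libraries labelled TRIM24-KO from 41.4 and 41.4 to 244 and 334, and TRIM33-KO from 44.3 and 41.8 to 711 and 638. The log2 fold change was 1.86 (SE 0.27, edgeR adjusted p = 0.012) in WT, 2.14 in DUXBL-KO, 2.86 in line 1, 3.64 in line 2, 2.80 in TRIM24-KO and 3.97 (SE 0.14, edgeR adjusted p = 3.69e-13) in TRIM33-KO.

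Of the 28 ORR1 rows tested, 6 were called higher in WT, 18 in DUXBL-KO, 25 in each WT pLV2 line, 24 in TRIM24-KO and 28 in TRIM33-KO. The shares of all repeat subfamilies called higher were 8.97%, 29.3%, 61.2%, 71.8%, 56% and 77.4% in WT, DUXBL-KO, line 1, line 2, TRIM24-KO and TRIM33-KO. ORR1 LTR rows had a median log2 fold change of 0.26 in WT, 1.13 in line 2 and 1.63 in TRIM33-KO. In TRIM33-KO the log2 fold change was 2.95 for ORR1A1, 2.74 for ORR1A3, 2.22 for ORR1A0, 1.97 for ORR1A2 and 1.62 for ORR1A4, each with an SE of 0.10 to 0.13. In TRIM24-KO the order differed, with ORR1A1 at 1.92, ORR1A0 at 1.34, ORR1A2 at 1.33, ORR1A3 at 1.18 and ORR1A4 at 1.07. The place of ORR1A2 there is uncertain, since its libraries with DOX held 369 and 570 CPM. The higher value is that of the CT010467.1-rich replicate 2 described below. ORR1B1 at 1.67, ORR1D1 at 1.47 and ORR1E at 1.48 lay near ORR1A4 in TRIM33-KO. ORR1A0-int stood at 2.50 in TRIM33-KO, 2.12 in line 2, 1.54 in line 1 and 1.18 in TRIM24-KO, all called, and at 0.61 in WT, where it was not called (edgeR adjusted p = 0.154).

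In WT the log2 fold changes of MT internal rows ran from -0.09 to 1.59 and in line 2 from -0.10 to 3.35, a wider range than that of the MT LTR rows in the same lines. MT-int had 13.4 and 14.1 CPM in WT without DOX and 54.5 and 28.2 with DOX. In TRIM33-KO it had 9.19 and 7.78 without DOX and 158 and 131 with DOX. In line 2 it went from 8.53 and 9.32 to 97.9 and 83.3. Libraries with and without DOX did not overlap in these lines, and the fold was largest in TRIM33-KO. The log2 fold change was 1.59 (SE 0.29, edgeR adjusted p = 0.0229) in WT, 2.16 in DUXBL-KO, 2.41 in line 1, 3.35 in line 2, 2.88 in TRIM24-KO and 4.09 (SE 0.18, edgeR adjusted p = 2.87e-12) in TRIM33-KO.

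The 9 MT LTR rows ranged only from 0.09 to 0.24 in WT, where 0 were called and 0 had an unadjusted p under 0.05, and from 0.86 to 1.13 in line 2. They ran from 0.49 to 1.94 in TRIM24-KO and from 1.23 to 1.73 in TRIM33-KO, with MTC highest in both. Both highest values rest on 1 library, since MTC was at 0.44 without TRIM24-KO with DOX replicate 2 and at 1.28 without TRIM33-KO with DOX replicate 2, lower than MTA_Mm with the same library left out. MTA_Mm, MTB, MTB_Mm and MTD had log2 fold changes of 0.21, 0.20, 0.11 and 0.14 in WT, 1.13, 0.92, 1.09 and 0.92 in line 2, and 1.53, 1.28, 1.46 and 1.28 in TRIM33-KO, where each was called. MTA_Mm-int, the internal part of a young MT subfamily, had a higher log2 fold change than its LTR in each line. It was at 266 and 250 CPM in line 2 without DOX and 1002 and 926 with DOX, and at 257 and 253 in TRIM33-KO without DOX and 1470 and 1250 with DOX. The log2 fold change was 1.90 (SE 0.11) in line 2, 2.42 (SE 0.12) in TRIM33-KO and 0.46 in WT, the last not called (edgeR adjusted p = 0.139). MTE-int was at 0.10 in WT, 0.70 in line 1, 0.67 in line 2, 0.65 in TRIM24-KO and 1.01 in TRIM33-KO, the last 4 called. Counting all 20 MT rows, 1 was called higher in WT, 8 in DUXBL-KO, 16 in line 1, 17 in line 2, 17 in TRIM24-KO and 19 in TRIM33-KO, beside 8.97%, 29.3%, 61.2%, 71.8%, 56% and 77.4% of all repeats.

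Among MLT1 LTR rows with at least 50 counts, MLT1L had the highest log2 fold change in WT, DUXBL-KO, line 2 and TRIM33-KO, while MLT1H led in line 1 and MLT1H2 in TRIM24-KO. MLT1L was at 10.1 and 9.96 CPM in WT without DOX and 27.0 and 19.4 with DOX. TRIM33-KO had 7.26 and 6.44 CPM without DOX and 77.1 and 82.3 with DOX. The other pLV2 lines held less than TRIM33-KO, with 22.8 and 24.7 in line 1, 51.6 and 48.4 in line 2 and 31.1 and 41.7 in TRIM24-KO, all with DOX. Its log2 fold change was 1.21 (SE 0.21, edgeR adjusted p = 0.0209) in WT, 1.97 in DUXBL-KO, 1.55 in line 1, 2.87 in line 2, 2.26 in TRIM24-KO and 3.54 (SE 0.14, edgeR adjusted p = 1.04e-12) in TRIM33-KO. MLT1H2, MLT1H and MLT1G3 reached 2.96, 2.74 and 2.86 in TRIM33-KO, with 202 to 534 mean counts per library.

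MLT1C, MLT1D and MLT1A had smaller changes. MLT1C was at 0.48, 0.68, 1.12, 1.55, 1.16 and 2.01 in WT, DUXBL-KO, line 1, line 2, TRIM24-KO and TRIM33-KO, and MLT1D at 0.11, 0.33, 0.62, 0.82, 0.67 and 1.17. MLT1A was at 0.06, 0.36, 0.66, 0.99, 0.48 and 1.28 in the same order. MLT1C was called in all lines but WT, and MLT1A and MLT1D in the pLV2 lines. At the other end, MLT1I stood at -0.09 in WT, -0.13 in both DUXBL-KO and TRIM24-KO, 0.31 in line 1, 0.67 in line 2 and 0.74 in TRIM33-KO, called only in line 2 and TRIM33-KO. MLT1E and MLT1O had -0.18 and -0.17 in WT, MLT1-int had -0.22 in line 2, and none of these was called. Most MLT1 internal rows were too sparse to test, 12 of 29 passing the filter for plain libraries and 13 for pLV2 libraries.

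**Figure D2:**
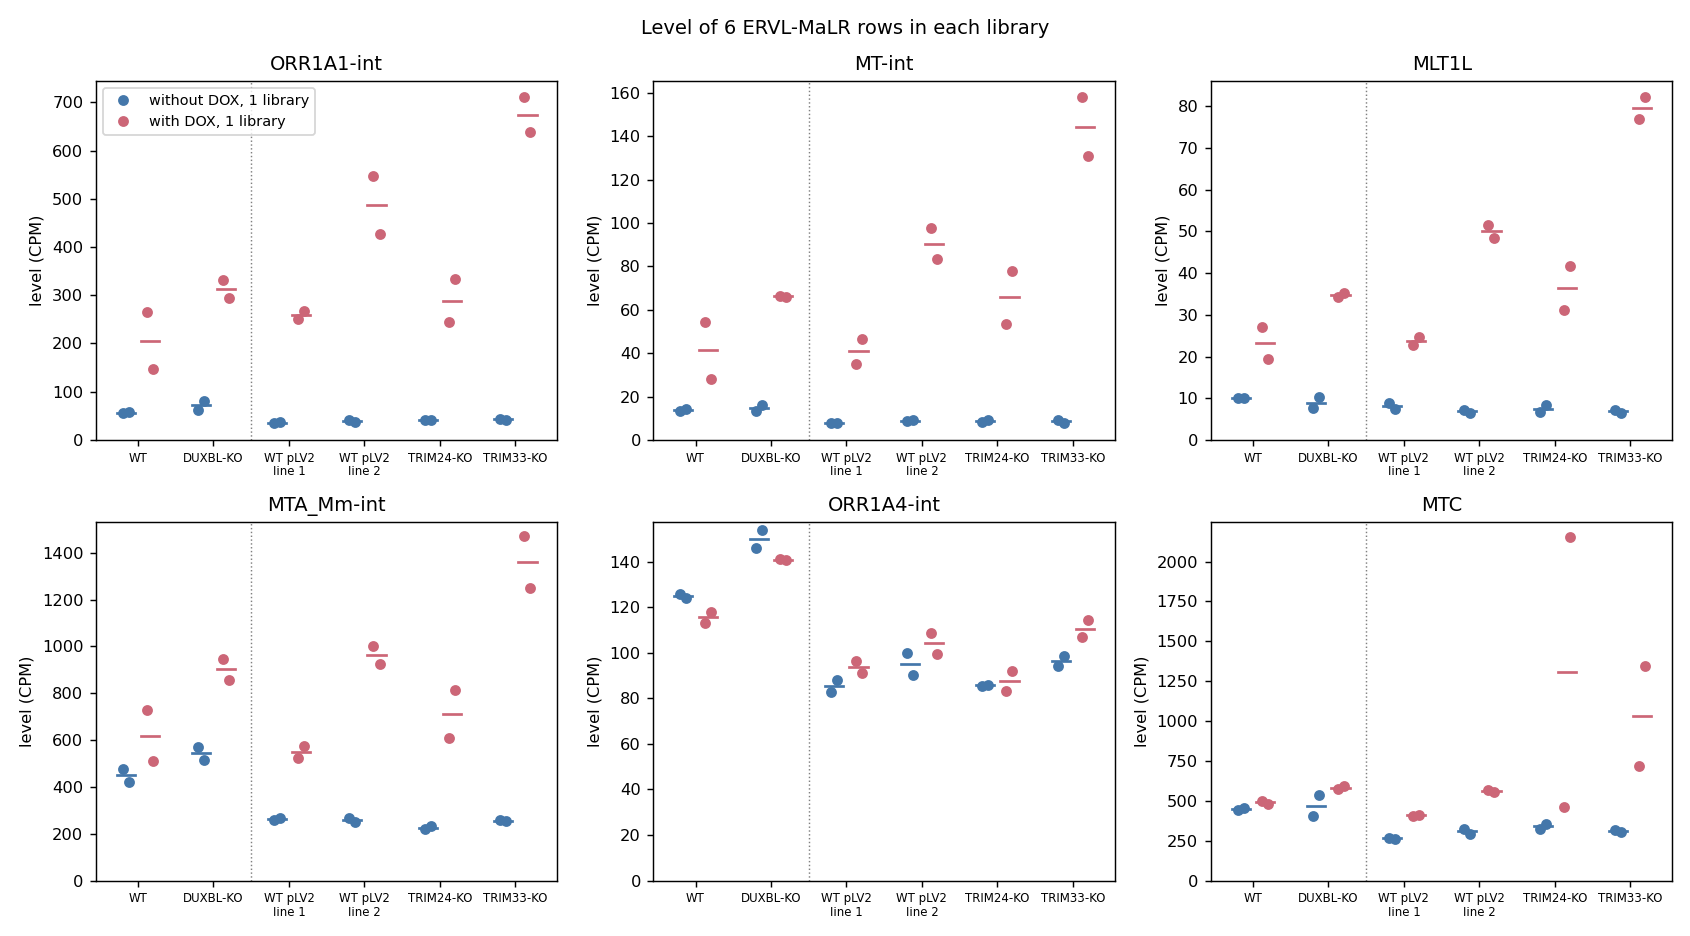
Level of 6 ERVL-MaLR rows (CPM) in each library, by line and DOX, with bars at the mean of 2 libraries. ORR1A1-int, MT-int, MLT1L and MTA_Mm-int are higher with DOX in each line, ORR1A4-int is not, and MTC is highest in a single library of TRIM24-KO with DOX at 2155 CPM.

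**Figure D3:**
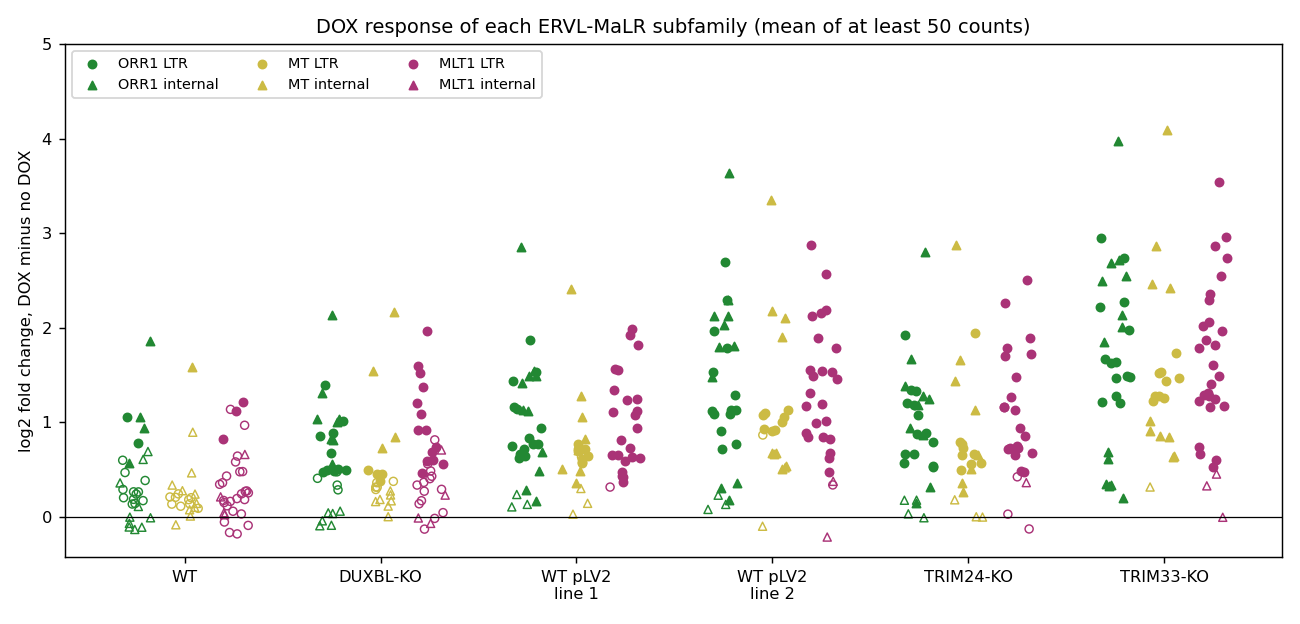
Log2 fold change with DOX of each member with a mean of at least 50 counts, by line. Circles are LTR rows and triangles internal rows, filled where the edgeR adjusted p was under 0.05. In WT pLV2 line 2 the MT LTR rows lie between 0.86 and 1.13, while the internal rows of all groups run from -0.22 to 3.64. In TRIM24-KO the MT LTR rows run from 0.49 to 1.94, with MTC highest there through 1 library.

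Internal rows thus split. The LTR and internal row of the same subfamily could be compared in all 6 lines for 22 subfamilies with at least 50 mean counts in both. The internal row had the higher log2 fold change in each line for 7 (MTA_Mm, MTB_Mm, MTE2b, ORR1A1, ORR1B2, ORR1D1, ORR1F) and the lower one in each line for 9 (MTB, MTC, MTD, MTEa, ORR1A4, ORR1B1, ORR1C1, ORR1C2, ORR1E). The difference between both rows was described and not tested. In ORR1A1 the ratio of internal to LTR counts was 0.829 to 1.03 in the plain libraries without DOX and 1.35 to 1.65 with DOX. In the pLV2 libraries it was 0.644 to 0.893 without DOX and 1.28 to 1.71 with DOX. ORR1A4 went the other way, from 0.956 to 1.14 down to 0.668 to 0.818 in plain libraries and from 0.897 to 1.07 down to 0.354 to 0.606 in pLV2 libraries. Libraries with and without DOX did not overlap in the ratios of ORR1A1 and ORR1A4, which need no scaling between libraries. In MTA_Mm they overlapped in the plain set, at 0.921 to 1.18 without DOX and 1.04 to 1.33 with DOX, and stood apart in the pLV2 set, at 0.774 to 0.95 and 1.16 to 1.62.

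Some internal rows with high counts had changes near 0. ORR1A4-int was at 126 and 124 CPM in WT without DOX and 113 and 118 with DOX. In line 2 it was at 99.9 and 90.3 without DOX and 109 and 99.7 with DOX, and in TRIM33-KO at 94.2 and 98.8 without DOX and 107 and 114 with DOX. The libraries overlapped in line 2 and stood apart by a small margin in WT and TRIM33-KO. Its log2 fold change ran from -0.11 to 0.20 over the 6 lines, with at least 1159 mean counts in each, and among the 6 lines it was called in TRIM33-KO (0.20, SE 0.07, edgeR adjusted p = 0.0216). That call was lost with library sizes that include repeats (0.14, edgeR adjusted p = 0.0861), with no filter on low counts (0.16, edgeR adjusted p = 0.0971), without TRIM33-KO without DOX replicate 1 (0.17, edgeR adjusted p = 0.0876) and without both CT010467.1-rich libraries described below (0.19, edgeR adjusted p = 0.0527). With only the compared groups in the fit it was called in line 1 (0.17, edgeR adjusted p = 0.0066).

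The LTR row ORR1A4 rose from 97.3 and 92.6 to 302 and 282 CPM in TRIM33-KO (log2 fold change 1.62, SE 0.11). ORR1B1-int ran from -0.11 to 0.33 and was called higher in the 4 pLV2 lines. ORR1E-int ran from -0.14 to 0.35 and was called in TRIM33-KO. Of 73 members with a mean of at least 50 counts in each line, 5 stayed under 0.5 in all lines: ORR1A4-int, ORR1B1-int, ORR1E-int, ORR1C2-int and MTE2a-int, a set chosen after the values were seen. Of these, ORR1C2-int was also called higher in the 4 pLV2 lines (at most 0.34), and MTE2a-int in 0 lines. Subfamilies of 1 group are close in sequence, and how reads that match several of them were assigned is not given in the sources used here, so the split between neighbouring rows is uncertain.

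**Figure D4:**
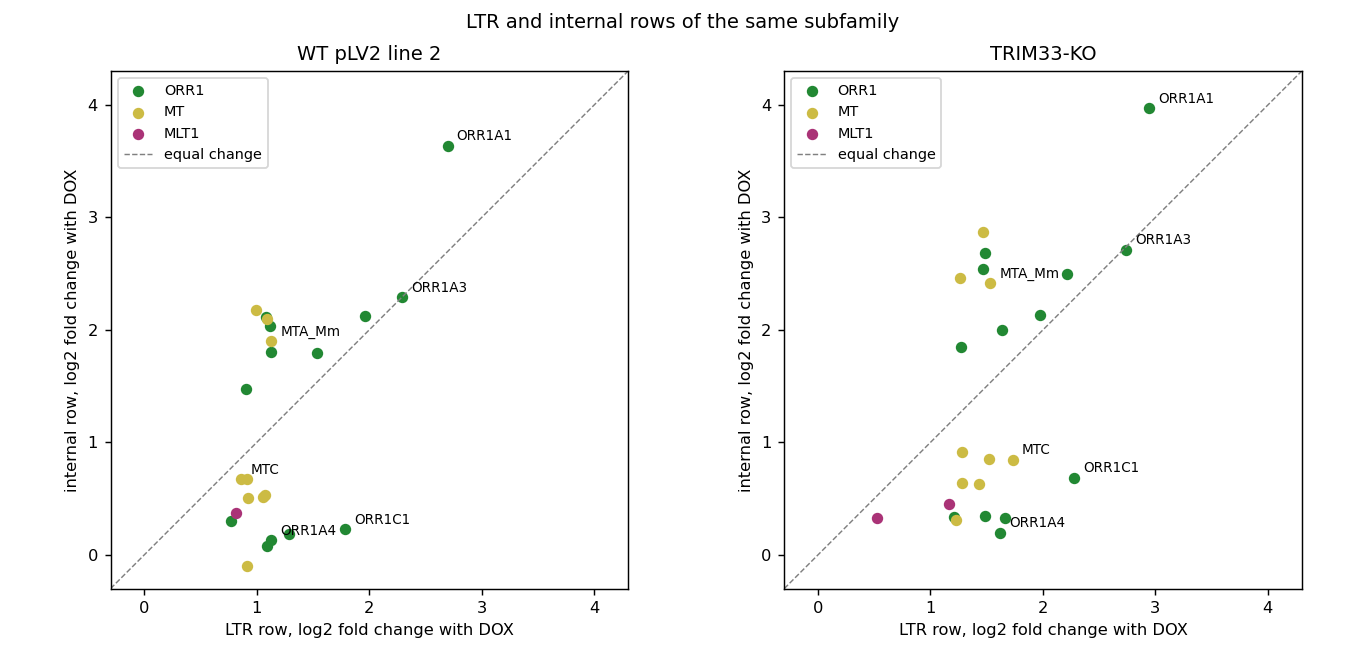
Log2 fold change with DOX of the LTR row (horizontal axis) and the internal row (vertical axis) of the same subfamily in WT pLV2 line 2 and TRIM33-KO, for subfamilies with at least 50 mean counts in both rows. The dashed line marks equal change. ORR1A1 and MTA_Mm lie above it, and ORR1A4 and ORR1C1 lie far below it, ORR1A4 at 1.13 and 0.13 in line 2 and ORR1C1 at 1.79 and 0.23.

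The order of members was alike from line to line. Over 73 members, Pearson's r between the log2 fold changes of 2 lines lay between 0.859 and 0.977 and Spearman's rho between 0.824 and 0.978 in 15 pairs of lines, which share no library. These correlations are across subfamilies, which may share reads and are not independent. MLT1H2, MLT1L, MT-int, ORR1A1 and ORR1A1-int were among the top 10 of the 73 in all 6 lines, and ORR1A4-int, ORR1B1-int, ORR1C1-int and ORR1E-int among the lowest 10 in all 6.

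Without DOX, few members differed between lines. For DUXBL-KO against WT, 0 of 90 members were called by edgeR and 0 by DESeq2, with 3 at an unadjusted p under 0.05 and 0% of all repeats called. For TRIM24-KO and TRIM33-KO the reference was the average of WT pLV2 lines 1 and 2, since the labels do not name a parent line. Here 0 of 91 members were called by edgeR and 0 by DESeq2 in each, with 9 and 15 at an unadjusted p under 0.05. Of all repeats, 4.87% were higher and 0.933% lower in TRIM24-KO. For TRIM33-KO these shares were 1.76% and 0.311%. Against line 1 alone, 7 members were higher and 0 lower in TRIM24-KO, beside 13.1% and 2.28% of all repeats, and 9 were higher and 1 lower in TRIM33-KO, beside 11.9% and 1.45%. Against line 2 alone, 0 were higher and 2 lower in TRIM24-KO (4.15% and 1.14% of all repeats), and 0 were called in TRIM33-KO (2.18% and 0%). The WT lines themselves differed, with 8 of 91 members higher in line 2 than in line 1 and 0 lower (8.29% and 3.42% of all repeats).

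Those 8 were MTD-int, MTE-int, MTE2b, MLT1D, MLT1E3, MLT1G3, ORR1C2 and ORR1G. MTD-int was at 71.9 and 66.4 CPM in line 2 without DOX and at 53.2 and 53.2 in line 1. MLT1G3 was at 13.7 and 9.93 against 6.72 and 6.31, with a log2 difference of 0.87 (SE 0.19, edgeR adjusted p = 0.00799), and MLT1D differed by 0.29 (SE 0.06). The MLT1G3 call was lost without line 1 replicate 2 (edgeR adjusted p = 0.0524) and without line 2 replicate 1 (edgeR adjusted p = 0.0917), and the MLT1D call without line 1 replicate 2 (edgeR adjusted p = 0.0512). The libraries of the 2 lines stood apart for MTD-int and MLT1G3. Of the genes that silence retrotransposons, 11 of 20 were lower in line 2 than in line 1 and 0 higher (19.2% and 18.9% of genes), among them Dnmt3l at -1.27 (SE 0.09, edgeR adjusted p = 2.51e-08). Of the fibroblast markers, 4 of 6 tested were higher in line 2, and 5 of 6 were higher in TRIM33-KO than in the WT mean (12.6% of genes higher, 10.9% lower). TRIM24-KO went the other way, with 0 of 6 higher and 2 lower than in the WT mean. In TRIM24-KO, 5 of the 20 silencing genes were higher and 11 lower than in the WT mean (20.9% and 22.4% of genes). For TRIM33-KO 1 of the 20 was higher and 4 were lower. The part of these genes in the repeat differences was not tested. The count of 8 members higher in line 2 than in line 1 also moved when 1 library was left out, as given below. The median log2 difference of members was 0.198 with all libraries. It was 0.177 without line 2 replicate 1 and 0.27 without line 2 replicate 2.

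The change with DOX was then compared between lines, by subtracting the reference's log2 fold change. TRIM33-KO responded more than the mean of both WT pLV2 lines. The difference was positive for 84 of 91 members, 59 were called higher and 0 lower, beside 40.7% and 0.311% of all repeat subfamilies, and the median difference was 0.55 for members and 0.44 for all repeats. Most repeats thus differed in the same direction. All 14 ORR1 LTR rows were called, 8 of 9 MT LTR rows, and 20 of 29 MLT1 LTR rows. MLT1L differed by 1.33 (SE 0.17, edgeR adjusted p = 1.85e-04), ORR1A3 by 0.82 (SE 0.11) and MTEb by 0.70 (SE 0.09), with the same adjusted p. ORR1A1-int differed by 0.72 (SE 0.16) and MT-int by 1.21 (SE 0.22), while ORR1A4-int differed by 0.07 (SE 0.09, edgeR adjusted p = 0.586).

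This count depended on the WT line used as the reference. Against line 1 alone 60 members were called higher and 0 lower, beside 45.9% and 0.622% of all repeats. Against line 2 alone 0 were called by edgeR in either direction, beside 0.104% of all repeats higher and 0% lower. There 88 of 91 differences were positive and 46 had an unadjusted p under 0.05, with a median of 0.37 for members and 0.28 for all repeats. Most repeats differed in that direction too, so the sign is not particular to the members. Against line 2 alone, MLT1L differed by 0.67 (SE 0.20, edgeR adjusted p = 0.08) and ORR1A3 by 0.44 (SE 0.13, edgeR adjusted p = 0.0778). Against line 1 alone they differed by 1.99 (SE 0.20, edgeR adjusted p = 6.79e-06) and 1.20 (SE 0.13, edgeR adjusted p = 1.09e-05). For ORR1A3 the libraries with DOX held 113 and 118 CPM in line 1, 237 and 193 in line 2 and 327 and 308 in TRIM33-KO, so TRIM33-KO lay above both lines.

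The WT lines differed from each other as well, with 28 of 91 members responding more in line 2 and 0 less (20.7% and 0% of all repeats), at a median difference of 0.34. MLT1L differed by 1.32 (SE 0.21, edgeR adjusted p = 5.60e-04), MTA_Mm-int by 0.85 (SE 0.16, edgeR adjusted p = 0.00142) and ORR1A3 by 0.76 (SE 0.13, edgeR adjusted p = 0.00117). Leaving out single libraries moved the count between 12, without line 2 with DOX replicate 1, and 33. It was 15 without line 1 with DOX replicate 1, and 16 without line 1 without DOX replicate 2 or line 2 without DOX replicate 2. Duxf3, the gene of the transgene's factor, was at 7.23 and 8.32 CPM in line 1 with DOX, 3.95 and 4.43 in line 2 and 5.85 and 6.93 in TRIM33-KO, so its order differed from that of the members, and its part in the result was not tested.

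**Figure D5:**
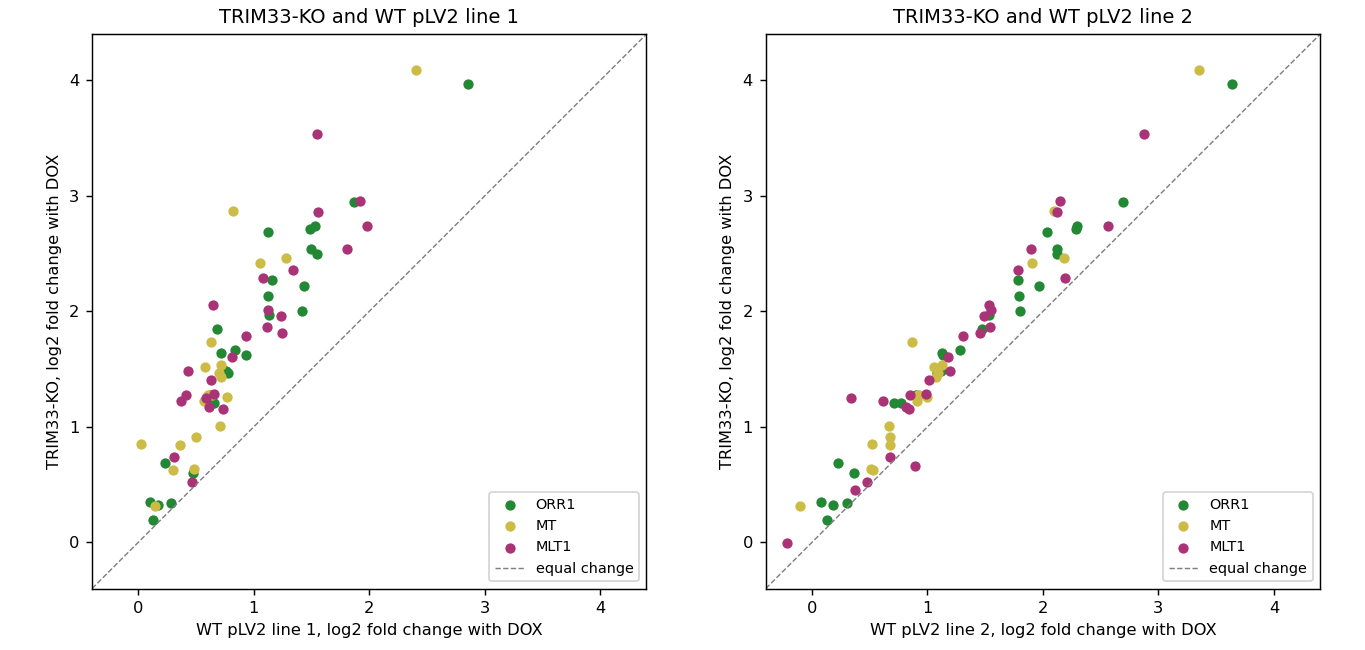
Log2 fold change with DOX of each member with at least 50 mean counts in TRIM33-KO (vertical axis) against WT pLV2 line 1 (left) and line 2 (right). The dashed line marks equal change. Nearly all members lie above the line in both plots, farther from it for line 1 (median difference over 91 members 0.74) than for line 2 (0.37).

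Libraries labelled TRIM24-KO responded less in 2 members, ORR1A3 with a difference of -0.73 (SE 0.12, edgeR adjusted p = 0.00249) and ORR1A0-int with -0.65 (SE 0.13, edgeR adjusted p = 0.00968), and more in 0 of 91. Over all repeats 1.24% responded less and 0.104% more. The median difference was -0.15 for members and -0.17 for all repeats. It was -0.34 and -0.36 without TRIM24-KO with DOX replicate 2, and -0.10 for both without TRIM24-KO with DOX replicate 1. ORR1A3 was at 97.6 and 117 CPM in these libraries with DOX, beside 113 and 118 in line 1 and 237 and 193 in line 2, so it overlapped line 1. Against line 1 alone 0 members were called by edgeR, with 8 at an unadjusted p under 0.05, beside 0.104% of all repeats lower and 0.415% higher, and the medians were 0.00 for members and -0.03 for all repeats. Against line 2 alone 23 members responded less and 0 more, beside 14% and 0.207% of all repeats, with medians of -0.34 and -0.32. Without TRIM24-KO with DOX replicate 2 the count was 32, all lower. It was 4 to 6 without line 1 without DOX replicate 1, either line 2 library without DOX, or line 2 with DOX replicate 2.

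In libraries labelled DUXBL-KO the response differed from WT for 0 of 90 members by edgeR and 0 by DESeq2, with 0% of all repeats called. The difference was positive for 80 of 90, with a median of 0.22 for members and 0.16 for all repeats. With all libraries in the fit, most repeats differed in that direction too. Without DUXBL-KO without DOX replicate 1 the medians were 0.05 and -0.01, and without DUXBL-KO without DOX replicate 2 they were 0.39 and 0.31. MLT1L was the single member at an unadjusted p under 0.05, with a difference of 0.76 (SE 0.29, edgeR adjusted p = 0.998), and ORR1A1-int differed by 0.28 (SE 0.37). The WT libraries with DOX lay apart from each other, at 265 and 147 CPM for ORR1A1-int beside 333 and 295 in the libraries labelled DUXBL-KO.

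MTC, an LTR of the MT group, stood apart from the other members in 2 libraries. It was at 325 and 356 CPM in libraries labelled TRIM24-KO without DOX and at 460 and 2155 with DOX. In TRIM33-KO it was at 318 and 304 without DOX and at 720 and 1347 with DOX. In the other lines with DOX its libraries lay close together, at 407 and 412 in line 1 and 566 and 554 in line 2. The ratio of replicate 2 to replicate 1 was 4.69 for MTC in TRIM24-KO with DOX, and 1.81 for the next highest member. In TRIM33-KO with DOX it was 1.87 and 1.22.

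The gene CT010467.1 took 30.4% and 12.9% of gene counts in those replicate 2 libraries and 1.3% or less in the other 22, and its part in the MTC level was not tested. MTC was called higher in TRIM24-KO (1.94, SE 0.43, edgeR adjusted p = 9.39e-04) and TRIM33-KO (1.73, SE 0.43, edgeR adjusted p = 0.00132). Without TRIM24-KO with DOX replicate 2 it stood at 0.44 in TRIM24-KO (edgeR adjusted p = 0.0971). With both replicate 2 libraries left out it was 0.44 (edgeR adjusted p = 2.58e-04) in TRIM24-KO and 1.26 (edgeR adjusted p = 2.98e-10) in TRIM33-KO. With all libraries it was not called in line 1 (0.63, edgeR adjusted p = 0.202) or line 2 (0.86, edgeR adjusted p = 0.0741). Without those libraries, line 1 was called at 0.63 (edgeR adjusted p = 4.75e-07) and line 2 at 0.90 (edgeR adjusted p = 3.34e-09). With the gene itself left out of the library sizes and the fit, 82 members were called in TRIM33-KO and 66 in TRIM24-KO.

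Other rows and genes give the setting. Of 10 ERVL relatives, led by MERVL-int and its LTR MT2_Mm, 7 were called higher with DOX in WT, 9 in DUXBL-KO, 9 in line 1, 10 in line 2, 9 in TRIM24-KO and 10 in TRIM33-KO, with 0 lower, beside 8.97%, 29.3%, 61.2%, 71.8%, 56% and 77.4% of all repeats called higher. MERVL-int rose by 6.83 (log2) in WT, 7.39 in DUXBL-KO, 7.07 in line 1, 9.04 in line 2, 7.88 in TRIM24-KO and 9.49 in TRIM33-KO. That is above every member in each line. All 10 markers of the 2-cell state were called higher in each line, where 2.86%, 4.52%, 9.96%, 12.7%, 11.4% and 16.4% of genes were called higher in the same order, and their summed level went from 0.364 to 5.99 CPM to 840 to 8759.

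Among 20 genes that silence retrotransposons, 0 were called with DOX in WT (2.86% of genes higher, 0.116% lower) and in DUXBL-KO (4.52% and 0.399%). In line 1, 2 rose and 4 fell, beside 9.96% and 6.12% of genes. In line 2, 3 rose and 5 fell (12.7% and 13.8% of genes), in TRIM24-KO, 4 rose and 1 fell (11.4% and 4.88%), and in TRIM33-KO, 6 rose and 7 fell (16.4% and 20% of genes). In TRIM33-KO, Trim28, the corepressor of KRAB zinc finger proteins, rose by 0.50 (SE 0.06, edgeR adjusted p = 5.73e-06), while Morc3 fell by 0.39 and Dnmt3l, a cofactor of DNA methyltransferases, fell by 0.42. The subfamilies whose level followed the summed MaLR level most closely over 24 libraries were the LINE elements L1MA4, L1MB4 and Lx8 (Pearson's r 0.991 each) and L1M3 and Lx6 (0.99 each), ranked by Pearson's r among 598 compared outside the family. Spearman's rho for these 5 was 0.968 to 0.988, and L1M2 had 0.99. Since levels were scaled within each set, the same was computed within sets, where Pearson's r of the 5 was 0.964 to 0.986 over 8 plain libraries and 0.993 to 0.997 over 16 pLV2 libraries. The libraries of a set share the DOX design and the scaling, so these are given as a description.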

How the data were processed

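The deposited tables hold raw counts per gene and per repeat subfamily for each of 24 libraries, used as deposited. Per the submitters' processing notes, bcl2fastq 2.20.0, cutadapt 1.18, STAR 2.7.6a and the mm10 build were used; the counting tool's handling of reads with several matches is not given in the sources used here.

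The quasi-likelihood test of edgeR 4.0.16 (R 4.3.3) was fitted to genes and repeats together, separately for the plain and pLV2 sets, with TMM and library sizes from gene rows. After filterByExpr, p-values were adjusted over the repeat subfamilies tested (981 and 965), or over genes for genes. Each line was compared with and without DOX, and lines were compared without DOX and in their DOX response. Alternatives included DESeq2 1.42.0, other scaling, filters and references, and leaving out each library. The method was tested on simulated data.

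The members, gene lists and named rows were chosen with earlier results of these data known. Named were a fixed set of subfamilies, the 3 highest and 3 lowest members with at least 50 mean counts per DOX comparison, and the 3 smallest p among called members elsewhere. Further names were chosen after their values were seen.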

Additional observations from a re-analysis of the deposited data

Results flagged for a closer look

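The DOX response differed between lines, by a test of the difference itself, in 3 comparisons. It differed in 2 members between TRIM24-KO and the mean of both WT pLV2 lines, ORR1A3 by -0.733 and ORR1A0-int by -0.651 on the log2 scale, beside 1.24% of all repeat subfamilies lower. Against line 1 alone neither passed (ORR1A3 -0.353, edgeR adjusted p = 0.36, and ORR1A0-int -0.362, edgeR adjusted p = 0.406). It differed in 59 members between TRIM33-KO and the same reference, among them MLT1L by 1.33, ORR1A3 by 0.823 and MTEb by 0.699, beside 40.7% of all repeat subfamilies. It differed in 28 members between WT pLV2 line 2 and line 1, among them MLT1L by 1.32, MTA_Mm-int by 0.85 and ORR1A3 by 0.76, beside 20.7% of all repeat subfamilies. Against line 2 alone, 0 members passed the edgeR test for TRIM33-KO, with 46 at an unadjusted p under 0.05. DESeq2 was not run against line 2 alone.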

How the results depend on the processing

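With 2 libraries per group, 1 library could change a count of called members. Leaving out each library in turn gave 0 to 20 members called with DOX in WT, 14 to 53 in DUXBL-KO, 62 to 68 in line 1, 73 to 74 in line 2, 58 to 66 in TRIM24-KO and 80 to 82 in TRIM33-KO. Without DOX it gave 0 to 0 for DUXBL-KO, 0 to 2 for TRIM24-KO, 0 to 1 for TRIM33-KO and 2 to 18 for line 2 against line 1. For the difference in response it gave 0 to 0, 2 to 32, 51 to 61 and 12 to 33. Where an arm kept 1 library, that library was assumed to vary like the other groups. Shared replicate numbers are not said to mark a batch. Same-numbered libraries had correlated deviations in the plain set (0.307 to 0.665, 6 of 6 pairs of groups) and mostly not in the pLV2 set (-0.068 to 0.281, 3 of 28 over 0.1). With a replicate block, 19 members were called in WT with DOX, among them ORR1A0 (edgeR adjusted p = 0.0159), MTA_Mm-int (edgeR adjusted p = 0.0262) and ORR1A0-int (edgeR adjusted p = 0.0388), not called without it, and the 13 other counts stayed within 1.5 times of the value without it.

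In WT with DOX, 25 were called with no filter on low counts, 3 with only the compared groups, 6 with a log2 fold change of at least 1 and 5 adjusted over genes and repeats together. With DOX at a log2 fold change of at least 1, the count was 15 in DUXBL-KO, 27 in line 1, 48 in line 2 and 30 in TRIM24-KO, and adjusted over genes and repeats together it was 20 in DUXBL-KO. For TRIM24-KO without DOX, 1 was called with RLE size factors, 8 with no filter, 1 without CT010467.1, 4 with only the compared groups, 7 against line 1 alone, 2 against line 2 alone, 5 with both CT010467.1-rich libraries left out (chosen after seeing the data) and 3 adjusted together. For TRIM33-KO without DOX the count was 14 with no filter, 1 with only the compared groups, 10 against line 1 alone and 3 adjusted together. For line 2 against line 1 without DOX it was 27 with no filter, 16 without CT010467.1, 21 with only the compared groups, 18 with both CT010467.1-rich libraries left out, 0 at a log2 difference of at least 1 and 17 adjusted together. For the TRIM24-KO response it was 5 with RLE, 20 with no filter, 5 without CT010467.1, 0 against line 1 alone, 23 against line 2 alone, 32 with both CT010467.1-rich libraries left out, 6 with DESeq2 and 0 at a log2 difference of at least 1. For the TRIM33-KO response it was 0 against line 2 alone and 8 at a log2 difference of at least 1. For the response of line 2 against line 1 it was 3 at a log2 difference of at least 1 and 6 adjusted together. Where not set by the construction of the alternative, the cause was not tested.

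Of the values of single members, 2148 kept their side and sign, 38 became called, 62 lost the call and 18 changed sign. Those that changed sign when a library was left out ranged as follows. In WT, MLT1A ranged from -0.0893 to 0.251 and MLT1O from -0.347 to 0.0429. In DUXBL-KO, MLT1I ranged from -0.374 to 0.0963. In line 1, MTEb-int ranged from -0.0497 to 0.0958 and ORR1E-int from -0.0694 to 0.255. In line 2, MTE2a-int ranged from -0.238 to 0.018. In TRIM24-KO, ORR1E-int ranged from -0.0515 to 0.0233 and MTE2a-int from -0.275 to 0.278. In TRIM33-KO, MLT1-int ranged from -0.336 to 0.340. MTE2a-int was 0.0044 in TRIM24-KO with only the compared groups. MLT1-int in TRIM33-KO was 0.0653 with RLE, 0.00787 with a filter at a mean of 10 counts, 0.0104 without CT010467.1, 0.0869 with only the compared groups and 0.0725 with DESeq2. Depth limits the MLT1 internal rows, most of which were left out by the filter on low counts.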
